A study of Mus musculus with 4 samples.

Results

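Vessel wall spots were examined in 4 mouse liver sections measured with the Visium assay for formalin-fixed tissue, in which RNA is read from a grid of barcoded positions and each molecule is counted as 1 UMI (unique molecular identifier). A spot is a small region that can hold several cells of different types. Spots with 2000 or more UMIs and no UMI of Msln or Upk3b, genes of the mesothelium that covers the liver, were eligible. In each section, the 3% of eligible spots with the largest share of Acta2, Tagln and Myh11 among all their UMIs were taken as wall spots. This gave 386 wall spots out of 12803 eligible spots and 13640 spots in all. The remaining 12417 eligible spots are called other spots.

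Each section came from 1 mouse, and all 4 mice were labelled as males of 5 months (1 label is questioned below) and received tamoxifen (75 mg/kg on 5 consecutive days) before a wait of 2 weeks. The healthy mouse and the mice of fibrotic sections 1 and 2 carried the floxed allele alone (HK2fl/fl), so all 4 animals held floxed Hk2, which encodes hexokinase 2, the enzyme that starts glycolysis. The Hk2-deleted mouse was PDGFRBcreERT2/Hk2fl/fl, in which tamoxifen switches on a Cre recombinase under the Pdgfrb promoter. Pdgfrb is active in hepatic stellate cells, the intended target per the labels, and also in mural cells, the smooth muscle cells and pericytes of vessel walls. The healthy mouse received olive oil, and the 3 others received carbon tetrachloride (CCl4) in olive oil at 1 uL per g of body weight, 2 times a week for 6 weeks per the design text, while a protocol field of the labels gives 4 or 6 weeks. The healthy and the Hk2-deleted groups thus hold 1 section each, and values of sections are given below in the order healthy, fibrotic 1, fibrotic 2 and Hk2-deleted.

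The media of hepatic arteries, portal vein branches and central veins is built from smooth muscle cells, which contract through myosin sliding on smooth muscle actin (Acta2), steadied by calponin (Cnn1) and tropomyosins. Their contractile genes are switched on by serum response factor with its partner myocardin (Myocd) at DNA motifs named CArG boxes, and Notch signals from the endothelium keep arterial smooth muscle mature. Around the muscle lies an adventitia of fibroblasts with elastic fibres and collagen, and in portal tracts the vessels run beside bile ducts, nerves and lymphatics. In injured liver, stellate cells also switch on Acta2 and Tagln, while Myh11, the smooth muscle myosin heavy chain, is the most restricted of the 3 to smooth muscle.

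The 3 genes that chose the spots are given as a description. Acta2 stood at 64.5, 191, 58.2 and 210 CPM (counts scaled to 1000000 UMIs) in the summed wall spots and at 2.72, 6.63, 3.64 and 8.59 CPM in other spots. Tagln, an actin-binding protein of smooth muscle, stood at 136, 319, 128 and 328 CPM in wall spots against 11.2, 23.7, 11.9 and 20.4 CPM. Myh11 stood at 21.1, 87.0, 44.4 and 114 CPM in wall spots against 1.14, 4.17, 2.05 and 4.48 CPM. Wall spots of fibrotic section 1 and of the Hk2-deleted section held more of all 3 than those of the other 2 sections. The wall spots took in 30.6%, 31.5%, 30.5% and 37.8% of the 3 genes' UMIs in eligible spots, and 22.0%, 39.0%, 23.1% and 36.1% of other spots held at least 1 such UMI.

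The choice was coarse where the genes were sparse. A wall spot held between 1 and 18 UMIs of the 3 genes in the healthy section (median 2), between 2 and 98 in fibrotic section 1 (median 5), between 1 and 25 in fibrotic section 2 (median 3) and between 2 and 61 in the Hk2-deleted section (median 7). In 46 of 90 wall spots of the healthy section and 36 of 78 of fibrotic section 2 the choice rested on 1 or 2 UMIs, against 11 of 113 and 3 of 105 in fibrotic section 1 and the Hk2-deleted section. All 3 genes were seen together in 12, 52, 11 and 65 wall spots. At the threshold, the last spot inside had a share of 123.8, 251.3, 137.6 and 262.1 UMIs per 1000000 and the first spot outside had 122.9, 250.8, 136.6 and 261.7, so the border is arbitrary and lies at a share higher in fibrotic section 1 and the Hk2-deleted section. Choosing spots by a single gene instead left the other 2 free to be tested. By Myh11 alone, Acta2 was higher in the spots so chosen by 3.40 ± 0.15 (log2 difference ± SE) and Tagln by 2.64 ± 0.12 (edgeR, adjusted p = 2.0e-24 and 6.6e-24). By Acta2 alone, Myh11 was higher by 3.53 ± 0.16 and Tagln by 2.76 ± 0.09 (adjusted p = 6.7e-77 and 4.2e-134). These tests cover other sets of spots than the wall spots. They show that the 3 genes go together, and since the same 3 genes define the wall spots, they do not test that choice. In the healthy section the spots chosen by Acta2 alone held 9 UMIs of Myh11, at 6.98 CPM against 1.59 CPM in the rest. Of the spots chosen by Myh11 alone, 26.9%, 46.0%, 39.7% and 49.5% were also wall spots. Of those chosen by Acta2 alone, 43.3%, 59.3%, 39.7% and 62.9% were.

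**Figure D1:**
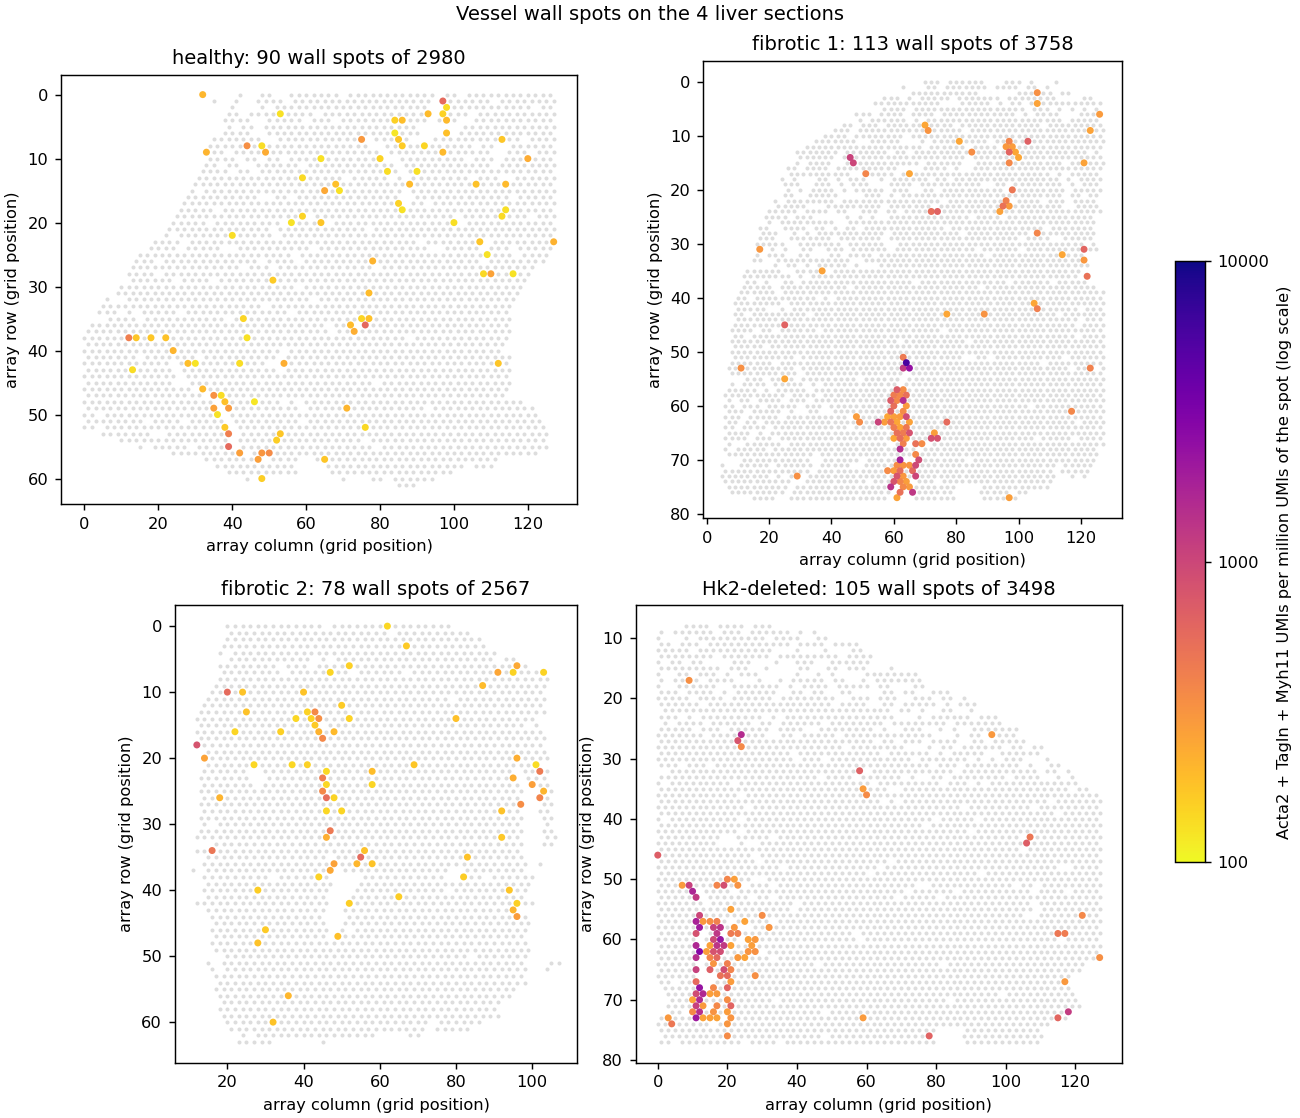
Position of the wall spots on the capture grid of each section (axes: array column and array row). Grey points are other eligible spots and coloured points are wall spots, coloured by their UMIs of the 3 choosing genes per 1000000 UMIs on a log scale. In fibrotic section 1 the largest and second largest touching groups hold 32 and 23 wall spots, and in the Hk2-deleted section 26 and 19. In the healthy section and fibrotic section 2 the wall spots are scattered.

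Of the wall spots, 41 of 90 (45.6%), 84 of 113 (74.3%), 29 of 78 (37.2%) and 87 of 105 (82.9%) touched another wall spot. These shares are a description, since spots of 1 section are not independent. Among other spots, 11.8%, 7.30%, 12.9% and 6.22% touched one. The largest group of touching wall spots held 4, 32, 7 and 26 spots and the second largest 4, 23, 6 and 19. Alone stood 49, 29, 49 and 18 wall spots. The map of wall spots shows the same split, with dense groups in fibrotic section 1 and in the Hk2-deleted section. A section shows only the vessels it happens to cut, so vessel size and condition cannot be told apart in these 4 sections. In the authors' deposited table, Moran's I of Acta2, a score of how far neighbouring spots resemble each other, was 0.053, 0.141, 0.048 and 0.294.

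Section totals ranged from 40585039 to 67479047 UMIs, with 1306127 to 1773441 UMIs in the summed wall spots. The median UMI count of a wall spot was 15396.5, 12143, 13566 and 15580, against 15523.5, 15081, 13671 and 14991 in other spots. Hk2, the targeted gene, stood at 1.85, 4.88, 3.94 and 3.50 CPM in the whole sections. The Hk2-deleted section thus lay below both fibrotic sections and above the healthy one, a difference given here without a test. In wall spots Hk2 was at 1.32, 5.12, 4.59 and 5.07 CPM, from 2, 8, 6 and 9 UMIs, and its difference from other spots was 0.05 ± 0.33 (adjusted p = 0.94). The Y-linked genes Eif2s3y and Ddx3y stood at 62.1 to 69.9 and 47.0 to 52.4 CPM in 3 sections but at 0.578 and 0.415 CPM in fibrotic section 1, which goes against its label as male. For the genes described below, calls that change without the section labelled fibrotic 1 are therefore named beside the result. Other spots held bile duct and scar tissue too, and wall spots overlapped with both. Of the wall spots, 17 of 90 (18.9%), 8 of 113 (7.08%), 9 of 78 (11.5%) and 13 of 105 (12.4%) were also among the 3% of spots richest in Krt7, Krt19 and Epcam. By Col1a1, Col1a2 and Col3a1, fibrillar collagen genes, 48.9%, 30.1%, 32.1% and 39.0% of wall spots were among the richest 10%.

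UMIs were summed over the wall spots and over the other spots of each section, and the sums were compared with section as a block, so that each wall library was set against the rest of its own section. A gene was called at an adjusted p under 0.05. Of 13663 genes tested, 1417 were higher in wall spots (10.4%) and 1948 were lower (14.3%). The higher genes differed by more: 738 of them were at least 2-fold higher and 106 at least 8-fold, while 15 of the lower genes were at least 2-fold lower. By plain CPM, a scale other than that of the calls, the direction was the same in all 4 sections for 1174 of the higher and 766 of the lower genes. The shift between the scales, given below, makes small decreases miss this count more easily. The median over all tested genes was -0.03 on the log2 scale. TMM scaling, which assumes that most genes do not differ, lowered differences against plain CPM: scaled by library size alone the median was 0.17, and 87.7% of calls were higher, against 42.1% in the fit reported here, 50.6% with DESeq2 and 85.1% with equal weight per spot. Small decreases therefore depend on the scaling, and CPM values and log2 differences can differ by that shift. Without fibrotic section 1, 1079 genes were higher and 1575 lower, and without the Hk2-deleted section 912 and 1412. In sums over spots, fewer cells of a type and less RNA per cell cannot be told apart.

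**Figure D2:**
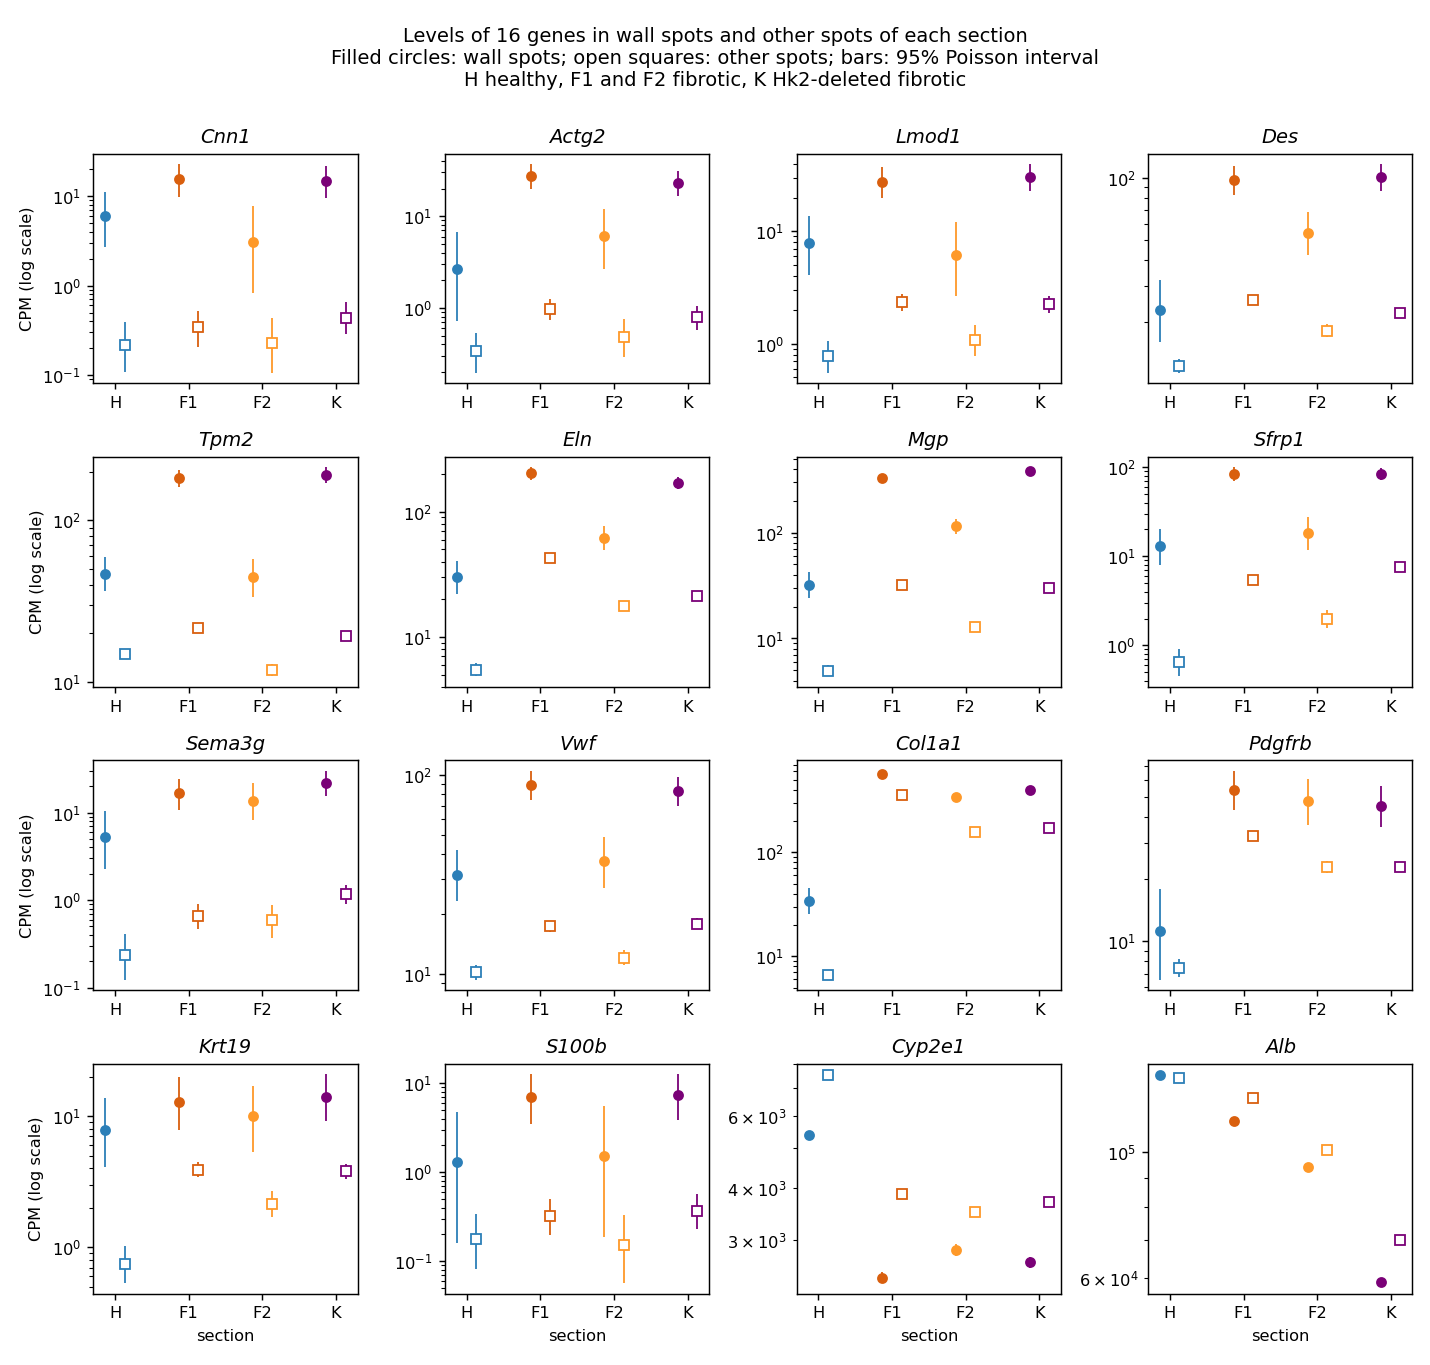
Levels of 16 genes (CPM, log axis) in the summed wall spots (filled circles) and other spots (open squares) of the healthy (H), fibrotic 1 (F1), fibrotic 2 (F2) and Hk2-deleted (K) sections, with 95% exact Poisson intervals that cover counting error only. Cnn1, Actg2, Mgp and Sema3g lie higher in wall spots in each section, while Cyp2e1 lies lower and Alb is near equal in the healthy section.

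The contractile apparatus was higher in wall spots across its members. Of 30 genes of this list tested, 25 were higher and none was lower, with a median of 0.90 against -0.03 over all genes. Cnn1 (chr9:22099221-22109221, GRCm38.p6), the thin-filament protein calponin, stood at 5.93, 15.3, 3.06 and 14.7 CPM in wall spots (9, 24, 4 and 26 UMIs) and at 0.217, 0.341, 0.230 and 0.439 CPM in other spots. The wall values of Cnn1 were above the other values in every section, with a difference of 4.77 ± 0.37 (adjusted p = 5.9e-20). Actg2 (chr6:83512909-83536251), the second smooth muscle actin, stood at 2.63, 27.5, 6.12 and 23.1 CPM against 0.335, 0.971, 0.486 and 0.791 CPM, a difference of 4.25 ± 0.30. Lmod1, leiomodin, which seeds actin filaments in smooth muscle, was at 7.90, 27.5, 6.12 and 30.4 CPM against 0.770, 2.33, 1.08 and 2.23 CPM (3.26 ± 0.25). As for the choosing genes, fibrotic section 1 and the Hk2-deleted section had the highest wall values of these 3 genes. Ldb3, a Z-line protein, was 4.11 ± 0.56 higher on 0, 9, 2 and 12 wall UMIs, and Jph2, which couples calcium stores to the cell surface, 3.29 ± 0.38 higher. Des (chr1:75360292-75368579), the muscle intermediate filament desmin that stellate cells also make, stood at 23.0, 97.8, 54.4 and 101 CPM in wall spots and at 12.3, 25.6, 18.3 and 22.3 CPM in other spots (1.60 ± 0.11). The healthy wall value of Des lay below the other-spot value of fibrotic section 1, so the 2 kinds of spot overlapped across sections but not within one.

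The wall spots were not uniform. By rank of the choosing share, Cnn1 stood at 11.6, 33.5, 4.76 and 29.9 CPM in the top 1% of spots and at 0.429, 1.41, 1.15 and 1.67 CPM in the spots ranked from 5% to 10%, a description without a test. Within the Hk2-deleted section, Eln, which encodes elastin, reached 422 CPM in the largest touching group of 26 spots and 91.5 CPM in wall spots that stood alone. The second largest group there, of 19 spots, was at 124 CPM. In fibrotic section 1 the largest group of 32 spots was at 192 CPM, the second of 23 spots at 267 CPM and lone wall spots at 121 CPM. Lone wall spots of the healthy section and fibrotic section 2 were at 27.5 and 54.3 CPM. Lone wall spots of all 4 sections thus still held more Eln than other spots of the same section, at 5.47, 42.8, 17.8 and 21.1 CPM. Muscle genes were sparse in them, with 2, 1, 0 and 3 UMIs of Cnn1 and 0, 3, 2 and 6 of Actg2. Des stood at 18.4, 71.9, 24.3 and 73.9 CPM there, against 12.3, 25.6, 18.3 and 22.3 CPM in other spots. Lone wall spots of fibrotic section 2 held Pdgfrb at 55.7 CPM, against 25.9 and 15.4 CPM in its largest touching groups. The name vessel wall is thus least certain for the 49 lone wall spots each of the healthy section and fibrotic section 2. Without each section's largest touching group, but with the second largest kept, 1126 genes were higher in wall spots and 1630 lower. Of the 140 named genes, 130 were then called in the same direction. Across all alternatives that number ran from 88 with equal weight per spot to 139 with a minimum of 5000 UMIs. It was 107 with spots chosen by Myh11 alone, 111 without collagen-rich spots and 111 without spots with bile duct UMIs.

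CArG boxes, to which serum response factor binds, were looked for on both strands in the 250 bases before each start site in RefSeq (GRCm38.p6), since the contractile genes moved together. An exact box was found for 439 of 27025 genes (1.62%) and for 5 of 27 genes of the contractile list with an entry (18.5%), namely Myl9, Vcl, Ldb3, Fhl1 and Filip1l. A box with exactly 1 other letter was found for 8.33% of all genes and for 5 of the 27, counted apart from exact boxes. The 4 windows below are shown because they hold the boxes nearest to the finding, with each box in capitals; Acta2 holds no exact box there but 2 with 1 other letter, 84 and 34 bases before its start, and Myl9 holds an exact box 161 bases before its start and 1 with another letter at 99. The box of Ldb3 starts 109 bases before this start site, and that of Filip1l starts 62 bases before it. A match describes the letters and is not shown to be a bound site.
Acta2 (chr19:34255374-34255623, minus strand): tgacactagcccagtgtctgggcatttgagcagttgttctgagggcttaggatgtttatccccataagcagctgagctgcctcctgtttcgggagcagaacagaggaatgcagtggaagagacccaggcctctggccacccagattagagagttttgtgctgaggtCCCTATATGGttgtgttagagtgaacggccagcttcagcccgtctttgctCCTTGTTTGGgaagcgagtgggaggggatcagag
Myl9 (chr2:156775214-156775463, plus strand): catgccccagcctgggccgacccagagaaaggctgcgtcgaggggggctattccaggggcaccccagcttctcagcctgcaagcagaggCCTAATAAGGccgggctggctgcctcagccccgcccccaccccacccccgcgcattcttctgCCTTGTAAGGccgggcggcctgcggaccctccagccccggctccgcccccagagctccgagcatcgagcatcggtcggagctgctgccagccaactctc
Ldb3 (chr14:34588608-34588857, minus strand): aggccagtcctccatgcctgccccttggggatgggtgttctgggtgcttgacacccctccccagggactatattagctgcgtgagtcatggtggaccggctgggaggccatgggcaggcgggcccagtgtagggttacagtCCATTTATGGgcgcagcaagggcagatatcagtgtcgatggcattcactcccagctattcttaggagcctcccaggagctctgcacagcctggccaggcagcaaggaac
Filip1l (chr16:57548992-57549241, plus strand): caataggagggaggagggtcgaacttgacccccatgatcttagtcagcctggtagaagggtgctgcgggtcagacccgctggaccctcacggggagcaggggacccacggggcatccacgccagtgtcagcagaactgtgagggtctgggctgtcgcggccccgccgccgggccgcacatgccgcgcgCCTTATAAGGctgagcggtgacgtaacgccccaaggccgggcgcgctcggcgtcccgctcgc
Tagln, Myh11, Actg2, Myocd and Eln had no entry in the promoter table.

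Regulators of the muscle program were higher as well, on few UMIs. Of 19 genes of smooth muscle transcription and Notch signalling tested, 10 were higher and none lower (median 0.82). Myocd, the myocardin that partners serum response factor, was 4.31 ± 0.51 higher on 1, 12, 1 and 14 wall UMIs (adjusted p = 3.7e-11). Notch3, the receptor that keeps arterial smooth muscle mature, stood at 7.24, 38.4, 9.95 and 30.4 CPM in wall spots against 1.97, 3.88, 3.25 and 5.50 CPM in other spots (2.33 ± 0.21). Hey2, a target of Notch, was 3.32 ± 0.86 higher but had no UMI in the wall spots of the healthy section and fibrotic section 2. Ebf1 and Prrx1, transcription factors of mesenchymal cells, were higher by 1.95 ± 0.29 and 1.63 ± 0.25.

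Genes that set vascular tone were mostly higher. Of 30 calcium, channel and receptor genes, 19 were higher and 2 lower, Adra1b and Agtr1a, with a median of 0.87. Pln, phospholamban, which brakes calcium uptake into stores, stood at 0, 11.5, 1.53 and 19.2 CPM in wall spots against 0.0197, 0.273, 0.205 and 0.562 CPM (4.69 ± 0.42). No Pln UMI was seen in the healthy wall spots, where 3 UMIs would have been 1.98 CPM, so its level there was not detectable at this depth. Kcna5 (5.03 ± 0.84), Ryr2 (4.17 ± 0.80) and Kcnmb1 (3.13 ± 0.42), a voltage-gated potassium channel, the calcium release channel of the stores and the beta subunit of the large-conductance potassium channel, were higher too, and Rasl12, a small GTPase, by 2.97 ± 0.34. Kcna5 rested on only 1, 5, 0 and 6 wall UMIs and Ryr2 on 1, 3, 0 and 7, so their size is uncertain.

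Mural cell genes were mostly higher, and stellate cell genes had no common direction across sections. Of 23 pericyte and mural genes, 21 were higher and none lower (median 1.35). Aoc3, a vascular amine oxidase of smooth muscle, stood at 1.98, 20.5, 2.30 and 18.6 CPM in wall spots against 0.276, 0.664, 0.538 and 0.773 CPM (4.01 ± 0.35). Olfr78, an olfactory receptor found in vessel muscle, was 4.72 ± 0.62 higher on 0, 6, 2 and 12 wall UMIs, and Map3k7cl 4.24 ± 0.45 higher. Pdgfrb, the receptor whose promoter drives the Cre, stood at 11.2, 53.7, 47.5 and 45.1 CPM in wall spots against 7.46, 32.3, 22.9 and 22.8 CPM, a smaller difference of 0.69 ± 0.11 (adjusted p = 4.5e-07). Rgs5, a G protein regulator of pericytes, was 0.36 ± 0.11 higher (adjusted p = 0.0082), a call lost without fibrotic section 1. Of 24 stellate cell genes, 4 were higher and 10 lower (median -0.20), and scaled by library size alone 6 were higher and 3 lower. The summed CPM of this list in wall spots was 1.03, 0.939, 1.19 and 1.05 times that in other spots. By plain CPM, 13, 7, 20 and 12 of the 24 genes were above their other-spot value, Reln among them in fibrotic section 2. The higher ones were Adamtsl2 (1.37 ± 0.15), which shapes microfibrils, Cygb (1.14 ± 0.10), a globin of stellate cells, Gucy1a1, a subunit of the nitric oxide receptor, and Pdgfrb. Colec10, a collectin of quiescent stellate cells, was lower by -0.55 ± 0.10, and Reln by -0.43 ± 0.07.

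The elastic matrix of the vessel wall was among the most widely higher lists. Of 25 genes, 21 were higher and none lower (median 1.09). Eln (chr5:134702595-134747368) stood at 30.3, 202, 62.0 and 169 CPM in wall spots and at 5.47, 42.8, 17.8 and 21.1 CPM in other spots, a difference of 2.25 ± 0.10 (adjusted p = 1.2e-36). Mgp (chr6:136872435-136875823), matrix Gla protein, which keeps vessel walls from calcifying, stood at 32.3, 330, 114 and 382 CPM against 4.97, 32.0, 12.9 and 30.0 CPM (3.17 ± 0.08). For both genes the wall value exceeded the other-spot value in each section, while the healthy wall value was below or near the other-spot values of fibrotic section 1. The microfibril protein Mfap4 was 2.41 ± 0.12 higher, the small proteoglycan Ogn 2.40 ± 0.21, Fbln1 2.53 ± 0.25, and Npnt, a ligand of integrins, 3.58 ± 0.45. The collagen and scar list had 22 of 28 genes higher and 2 lower, Fn1 and Col18a1 (median 0.68). Col1a1, the main fibrillar collagen chain, stood at 34.2, 569, 341 and 394 CPM in wall spots against 6.61, 354, 159 and 170 CPM, a difference of 0.91 ± 0.08. That call was lost with a robust estimate of each gene's own spread, which gave a SE of 0.24 and an adjusted p of 0.11. Thbs1 and Timp3, a thrombospondin and an inhibitor of matrix proteases, were 1.47 ± 0.10 and 1.18 ± 0.07 higher.

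Fibroblast genes of the portal tract were higher and so were genes that no list held. Of 23 portal fibroblast genes, 17 were higher and none lower, with a median of 1.46, though the list shares Eln, Mfap4 and Fbln2 with the elastic list. Clec3b, tetranectin of adventitial fibroblasts, stood at 13.2, 44.1, 9.95 and 34.96 CPM in wall spots against 1.03, 2.83, 0.922 and 3.27 CPM (3.46 ± 0.21), and Penk, a precursor of enkephalins, was 3.96 ± 0.60 higher on 5, 2, 0 and 12 UMIs. Sfrp1, a secreted inhibitor of Wnt signals, stood at 13.2, 83.8, 18.4 and 84.0 CPM against 0.651, 5.38, 2.00 and 7.50 CPM, a difference of 3.51 ± 0.16. Cilp, a matrix protein, stood at 3.29, 67.1, 11.5 and 37.8 CPM against 0.257, 3.93, 1.20 and 3.57 CPM (3.50 ± 0.21). Both were higher in wall spots in all 4 sections and, like the muscle genes, highest in fibrotic section 1 and the Hk2-deleted section. Hspb7, a small heat shock protein of muscle, Npy1r, the receptor of neuropeptide Y, and Sncg were 3.48 ± 0.30, 3.53 ± 0.29 and 3.50 ± 0.31 higher. Myoc was 3.59 ± 0.31 higher, with 46 and 39 wall UMIs in fibrotic section 1 and the Hk2-deleted section and 1 in each of the 2 others. Without the collagen-rich spots, with wall spots chosen anew from the rest, 678 genes were higher and 761 lower, and 12 portal fibroblast, 18 elastic and 21 contractile genes were called higher.

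Arterial endothelial genes were mostly higher in wall spots, and sinusoidal ones mostly lower. Of 20 arterial genes, 16 were higher and 1 lower, Clu (median 0.81). Sema3g, a semaphorin of arterial endothelium, stood at 5.27, 16.6, 13.8 and 22.0 CPM in wall spots against 0.237, 0.664, 0.589 and 1.18 CPM (4.24 ± 0.29), and Gja5, the arterial gap junction protein connexin, at 9.22, 23.7, 9.19 and 25.9 CPM against 1.22, 2.11, 2.20 and 3.39 CPM (2.74 ± 0.23). The wall values of both genes lay above all other-spot values. Of 18 genes of venous and large vessel endothelium, 7 were higher and 1 lower, Ackr1 (median 0.02). Vwf, von Willebrand factor, stood at 31.6, 88.9, 36.7 and 82.9 CPM against 10.2, 17.3, 12.1 and 17.9 CPM (1.85 ± 0.11). Of 17 pan-endothelial genes, 3 were higher and Kdr, the receptor of VEGF, was lower by -0.38 ± 0.08. Of 16 sinusoidal genes, 10 were lower and Stab1 was higher (median -0.36), while by library size alone 4 were lower and 2 higher. Clec4g, a lectin of sinusoidal endothelium, stood at 220, 189, 261 and 186 CPM in wall spots against 210, 283, 274 and 257 CPM, a difference of -0.46 ± 0.06, with the healthy section not lower. Oit3, also sinusoidal, was lower by -0.53 ± 0.08. Of 7 lymphatic genes, 3 were higher and 2 lower. Mmrn1, a multimerin of lymphatic vessels, stood at 8.56, 46.7, 8.42 and 40.0 CPM against 0.770, 2.25, 1.41 and 4.22 CPM (3.37 ± 0.22). The 2 lower ones were Reln (-0.43) and Prox1 (-0.19), the second a call lost without fibrotic section 1. The summed CPM of the list in wall spots was 1.08, 1.00, 1.05 and 1.00 times that in other spots, so the list as a whole was not higher.

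**Figure D3:**
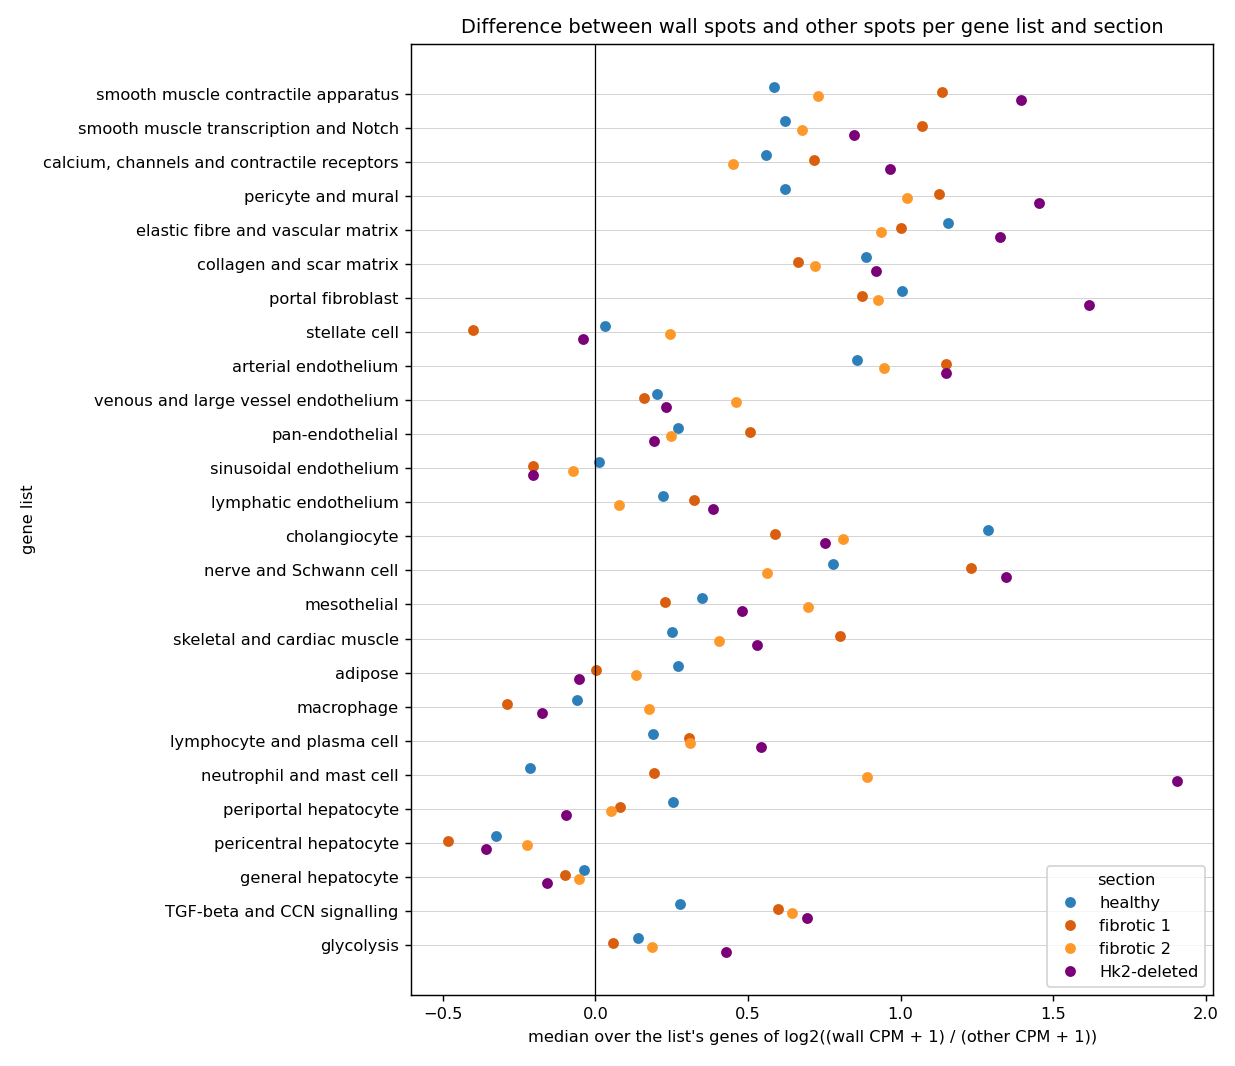
Median over the genes of each of 26 lists of the log2 ratio of wall to other spots, with 1 CPM added to both, for each section (1 point per section). The contractile, mural, elastic, portal fibroblast, arterial and nerve lists lie above 0 in all 4 sections, the pericentral and general hepatocyte lists below 0, and the neutrophil list spreads from below 0 in the healthy section to its highest value in the Hk2-deleted section.

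Neighbours of vessels in the portal tract were present in wall spots. Of 12 nerve and Schwann cell genes that could be tested, of 20 in the matrix, 8 were higher and none lower (median 2.51). S100b, a Schwann cell protein, was 3.85 ± 0.49 higher on 2, 11, 2 and 13 wall UMIs, Stmn2, which also counts in the arterial list, 3.88 ± 0.38, and Scn7a, a sodium channel of glia, 2.67 ± 0.27. The catecholamine genes Th and Dbh had no UMI in the wall spots of any section. Of 23 cholangiocyte genes, 14 were higher and 1 lower, Cp (median 0.82). Krt19, a keratin of bile ducts, stood at 7.90, 12.8, 9.95 and 14.1 CPM in wall spots against 0.750, 3.90, 2.15 and 3.80 CPM (1.94 ± 0.26). Spp1, osteopontin of duct cells and of macrophages, stood at 423, 482, 457 and 396 CPM against 67.7, 272, 227 and 221 CPM (1.11 ± 0.10), with the wall values close to each other and the healthy other spots lowest. Without the healthy section Spp1 was 0.71 higher, and with a robust estimate of each gene's own spread its adjusted p was 0.21. Without spots that held a UMI of Krt7, Krt19 or Epcam, again with a new choice, 749 genes were higher and 1046 lower. Of 16 mesothelial genes, 5 were higher, among them Igfbp5 (2.16 ± 0.13), and Krt14 had no UMI in any wall spot. Of 9 genes of skeletal and cardiac muscle tested, 3 were higher, of which Tnni2 and Tnnt3 lost their call without fibrotic section 1 or the Hk2-deleted section. The third was Tnnt2, a troponin, at 14.5, 51.2, 8.42 and 42.9 CPM against 1.14, 2.56, 1.20 and 3.16 CPM (3.61 ± 0.21), while Acta1, Myh2, Myh6 and Myh7 had no wall UMI.

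The macrophage genes called were mostly lower, and some lymphoid and neutrophil genes were higher. Of 23 macrophage genes, 13 were lower and 4 higher (median -0.28), and by library size alone 5 were lower and 5 higher. The summed CPM of the macrophage list in wall spots was 1.14, 0.856, 1.13 and 0.947 times that in other spots, so the list as a whole had no common direction. Timd4 and Adgre1, markers of Kupffer cells, were lower by -0.64 ± 0.14 and -0.59 ± 0.18. The call of Adgre1 was lost without fibrotic section 1, with DESeq2 and by library size alone. Ccr2 and Cx3cr1, chemokine receptors of infiltrating monocytes, were 0.78 ± 0.12 and 0.74 ± 0.22 higher, the second again lost without fibrotic section 1. Of 24 lymphocyte and plasma cell genes, 9 were higher and 1 lower, Xbp1 (median 0.36). Of these, Igkc, the kappa light chain, stood at 1282, 3487, 1660 and 4090 CPM in wall spots against 612, 2565, 1056 and 1802 CPM (0.64 ± 0.05). Of 12 neutrophil and mast cell genes, 8 were higher and 1 lower, Kit, but DESeq2 called none in either direction. S100a9, a neutrophil alarmin, stood at 7.24, 307, 1440 and 894 CPM in wall spots against 11.5, 252, 563 and 205 CPM (1.00 ± 0.11). Without the Hk2-deleted section S100a9 was 0.58 higher and Ngp and Camp, granule proteins, 0.45 and 0.56 against 1.13 and 1.34 with it. With a robust estimate of each gene's own spread the adjusted p was 0.28 for S100a9, 0.29 for Ngp and 0.26 for Camp. The mast cell genes Cma1, Cpa3, Mcpt4 and Tpsb2 had no UMI in any wall spot.

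Hepatocyte genes were lower, most clearly those of the pericentral zone. Of 19 pericentral genes, 14 were lower and none higher (median -0.55), and 11 were lower by library size alone. Cyp2e1, the cytochrome that turns CCl4 into its toxic radical, stood at 5399, 2425, 2827 and 2640 CPM in wall spots against 7546, 3871, 3503 and 3706 CPM, a difference of -0.69 ± 0.04 (adjusted p = 1.7e-24). Cyp2c29 and Cyp1a2, also pericentral cytochromes, were lower by -0.69 ± 0.05 and -0.65 ± 0.06. Each was lower in wall spots in all 4 sections. Of 20 periportal genes, 8 were lower and none higher (median -0.07), but by library size alone 7 were higher and none lower, so their direction flips with the scaling. All 24 general hepatocyte genes tested were lower (median -0.28), against 8 by library size alone. Alb, albumin, stood at 136259, 113467, 94091 and 59144 CPM in wall spots against 134966, 124143, 100976 and 69908 CPM, so it was not lower in the healthy section. Outside the lists, the largest decreases were taken among called genes with at least 10 pooled CPM and the same sign in all 4 sections. They were Cyp4a32 (-1.17 ± 0.22), a fatty acid hydroxylase whose near-identical relatives make its count uncertain, and Inhbe (-0.98 ± 0.14), a hepatocyte activin chain. Next came Rassf6 (-0.85 ± 0.16) and Notum (-0.83 ± 0.12), an inhibitor of Wnt proteins. Notum stood at 15.1, 30.1, 26.8 and 25.4 CPM in wall spots against 24.2, 54.9, 34.5 and 38.0 CPM, lower in all 4 sections.

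Signals of the TGF-beta and CCN families were higher. Of 24 genes, 14 were higher and none lower (median 0.33). The ligands Tgfb3 and Tgfb2 were 1.55 ± 0.18 and 1.51 ± 0.22 higher. The matricellular proteins Ccn3, Ccn5 and Ccn2 were 3.60 ± 0.33, 2.34 ± 0.25 and 1.33 ± 0.10 higher, with Ccn2, connective tissue growth factor, at 40.2, 56.9, 55.1 and 59.8 CPM in wall spots against 12.9, 20.03, 17.8 and 22.8 CPM. The wall values of Ccn2 lay close together and above all other-spot values. Of 16 glycolysis genes, 3 were higher and 2 lower (median 0.00). Pfkp, the platelet phosphofructokinase, Hk1, the hexokinase of most tissues, and Pkm, pyruvate kinase of muscle, were 0.87 ± 0.17, 0.57 ± 0.13 and 0.39 ± 0.10 higher, the last a call lost without the Hk2-deleted section. Pgam1 and Pgk1 were lower by -0.21 ± 0.07 and -0.18 ± 0.07, calls lost by library size alone, where Pgk1 turned direction, and that of Pgk1 also without fibrotic section 1.

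To see how far the wall pattern reached, 1139 ring spots that touch a wall spot without being one were compared with 9696 distant spots at least 3 grid steps away. Of 12961 genes tested, 400 were higher in the ring (3.09%) and 299 lower (2.31%). The distant spots are also among the other spots of the comparison above, so the 2 comparisons share controls. Without the Hk2-deleted section 193 genes were higher in the ring and 141 lower, and without the healthy section 262 and 92.

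**Figure D4:**
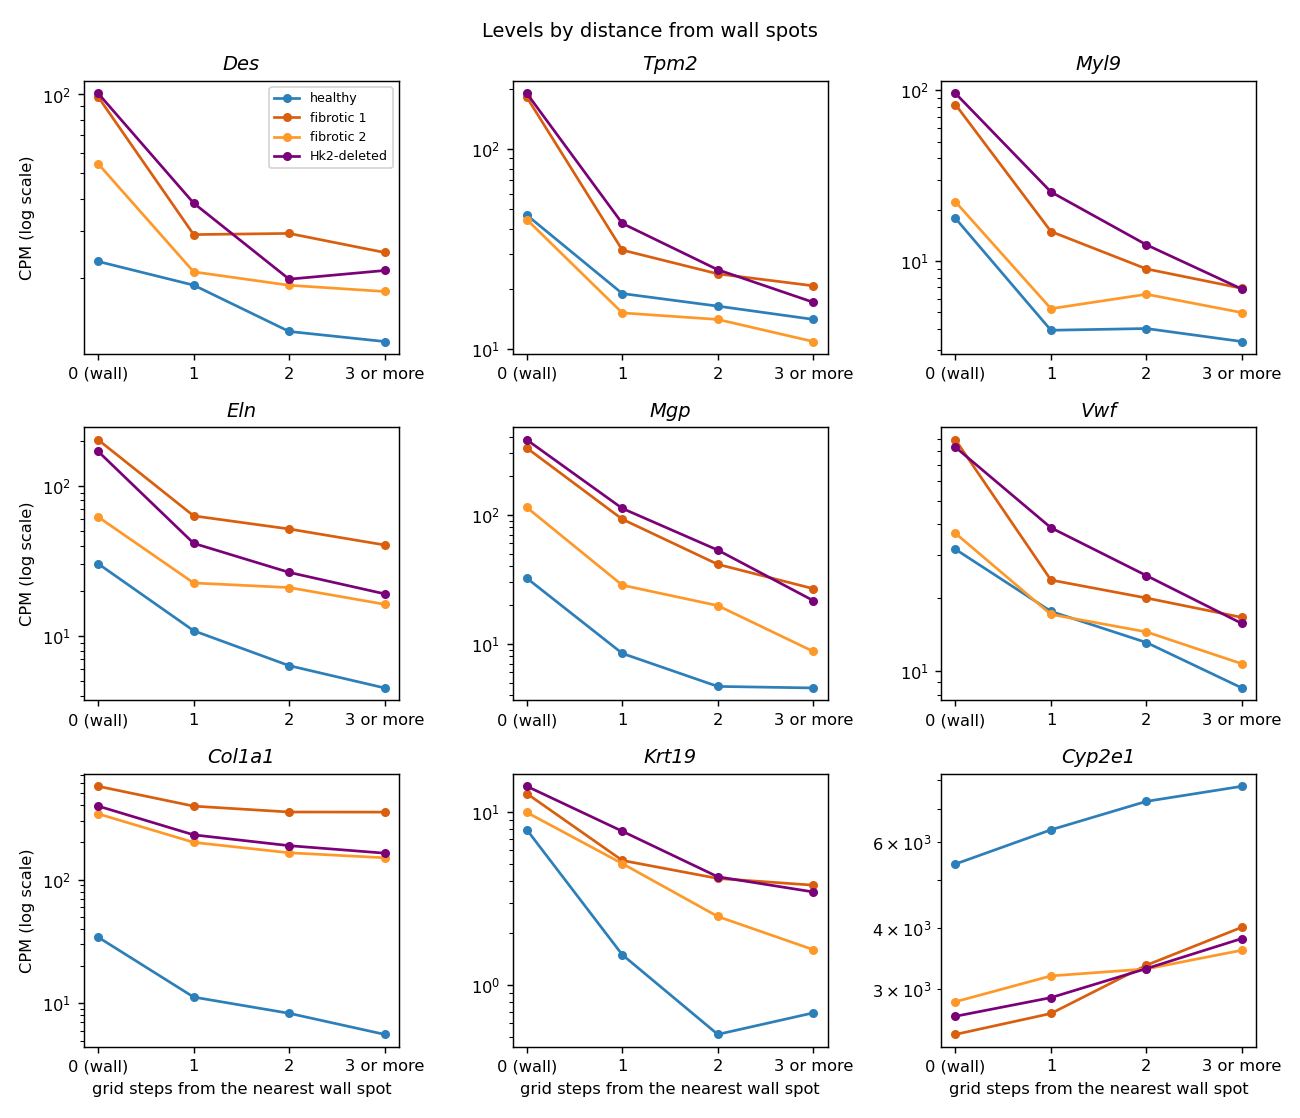
Levels of 9 genes (CPM, log axis) against the number of grid steps from the nearest wall spot, with 1 line per section. Step 0 is the summed wall spots. Mgp, Eln and Vwf fall with distance in every section, and Cyp2e1 rises.

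Muscle, matrix, arterial and duct genes were higher in the ring too. Of 29 contractile genes, 12 were higher in the ring, of 25 elastic genes 15, of 20 arterial genes 13, and of 23 cholangiocyte genes 12. Cnn1 was 2.55 ± 0.52 higher in the ring than in distant spots (adjusted p = 0.0026), Des 0.48 ± 0.09, Eln 0.78 ± 0.09 and Col1a1 0.35 ± 0.06. The value of Cnn1 rested on 3, 4, 1 and 10 ring UMIs. In fibrotic section 2 its ring level of 0.219 CPM lay below the 0.779 CPM at 2 steps, so its size is uncertain. Cilp and Sfrp1 were 2.66 ± 0.27 and 2.47 ± 0.19 higher. The difference of Pdgfrb was 0.17 ± 0.09 (adjusted p = 0.32) and that of Rgs5 0.09 ± 0.09, neither past the test. Mgp stood at 32.3, 8.42, 4.67 and 4.54 CPM at 0, 1, 2 and 3 or more steps in the healthy section, at 330, 92.5, 41.3 and 26.8 CPM in fibrotic section 1, at 114, 28.5, 19.8 and 8.73 CPM in fibrotic section 2, and at 382, 112, 53.3 and 21.6 CPM in the Hk2-deleted section. Pericentral genes went the other way: 14 of 19 were lower in the ring and none higher, while 5 of 20 periportal genes were higher and none lower and no general hepatocyte gene was called. Cyp2e1 stood at 5399, 6340, 7246 and 7778 CPM with growing distance in the healthy section and at 2640, 2882, 3303 and 3804 CPM in the Hk2-deleted section (ring against distant -0.41 ± 0.05).

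The wall difference itself was then compared between the 3 CCl4 sections and the olive oil section. The healthy section is alone and was taken to vary like the others. Of 14097 genes tested, the difference was larger with CCl4 for 10 (0.0709%) and smaller for 15 (0.106%), while 534 and 242 passed at an unadjusted p under 0.05. DESeq2 called 0 larger (51 at an unadjusted p under 0.05) and 8 smaller. edgeR gave every gene the spread of the common trend here and not its own; with a robust estimate of each gene's own spread, 5 were larger and 13 smaller. Des was among those called in both edgeR fits. Its log2 wall-to-other ratio was 0.90 in the healthy section and 1.93, 1.57 and 2.18 in the CCl4 sections, an added 1.10 ± 0.26 (adjusted p = 0.019, and 0.034 with the robust estimate), but the call was lost without fibrotic section 1 (adjusted p = 0.11) or the Hk2-deleted section (adjusted p = 0.41). Tpm2, beta-tropomyosin, stood at 46.7, 182, 44.4 and 191 CPM in wall spots and 14.9, 21.6, 11.9 and 19.3 CPM in other spots, with ratios of 1.65, 3.08, 1.90 and 3.30. Its added 1.35 ± 0.21 passed (adjusted p = 2.5e-07) and was lost with the robust estimate (SE 0.63, adjusted p = 0.96), and fibrotic section 2 lay nearer to the healthy section than to the other CCl4 sections. The other 28 of 30 contractile genes did not pass, and Cnn1 and Eln gave 0.33 ± 0.93 and 0.02 ± 0.26.

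**Figure D5:**
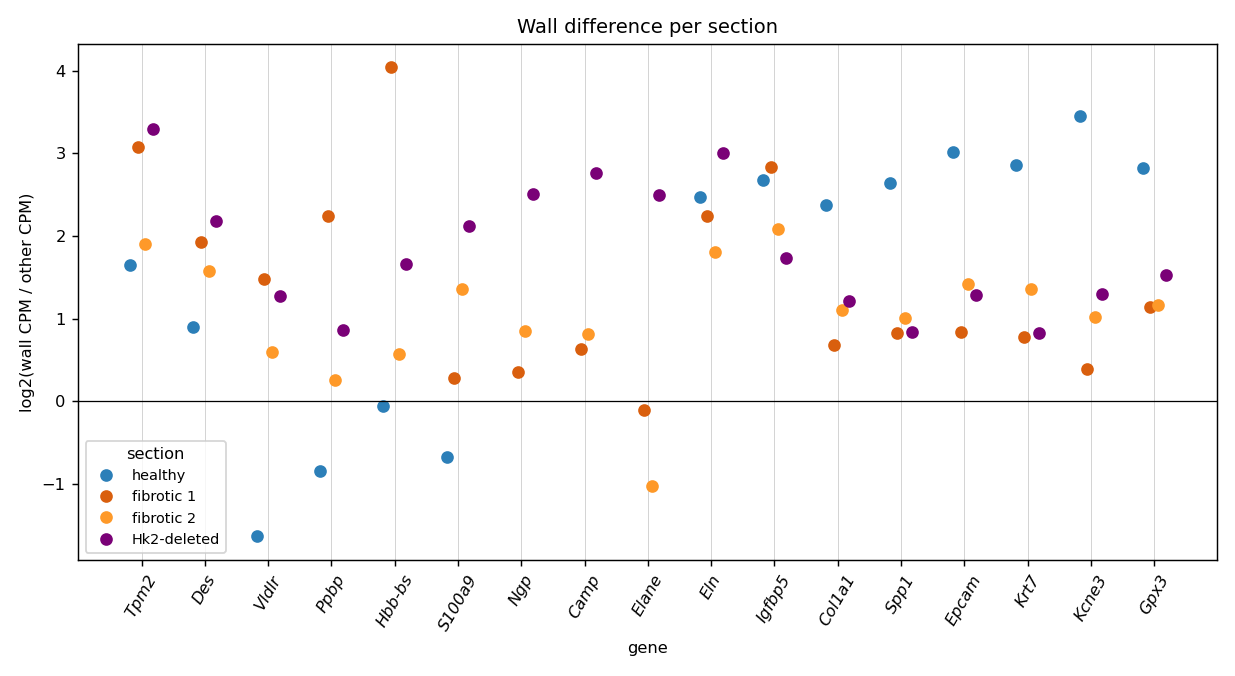
Log2 ratio of wall to other CPM of 17 genes, with 1 point per section. Col1a1, Spp1, Epcam, Krt7, Kcne3 and Gpx3 have their highest ratio in the healthy section, and Ngp, Camp and Elane have theirs in the Hk2-deleted section; these 3 have no point for the healthy section, where wall spots held no UMI of them.

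Scar and duct genes were among the smaller differences. Col1a1, Col1a2 and Col3a1 were the 3 of 28 collagen genes called, all smaller. The ratio of Col1a1 was 2.37 in the healthy section and 0.68, 1.10 and 1.21 with CCl4, a change of -1.32 ± 0.23 (adjusted p = 2.1e-05, and 5.0e-05 with the robust estimate). Spp1 had ratios of 2.64, 0.83, 1.01 and 0.84 (-1.69 ± 0.13), and Epcam, an adhesion protein of duct cells, 3.02, 0.84, 1.42 and 1.29 (-1.78 ± 0.32). Epcam in wall spots was alike across sections at 29.6, 29.4, 36.7 and 28.8 CPM, and in other spots it was at 3.65, 16.4, 13.7 and 11.8 CPM. Gpx3, an extracellular glutathione peroxidase, changed by -1.47 ± 0.21 and Kcne3, a potassium channel subunit, by -2.44 ± 0.44. When wall spots were chosen by Myh11 alone, Spp1 still passed with -0.88, while Col1a1 (-0.40), Epcam (-1.06), Gpx3 (-0.54) and Kcne3 (-0.67) did not. Mest (-1.76 ± 0.42) and Krt7 (-1.86 ± 0.46) passed in both edgeR fits but not without the Hk2-deleted section, and Krt7 not without fibrotic section 1.

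Globin, neutrophil and platelet genes gave other large values. Hbb-bs, a beta globin of red cells with a near-identical copy, stood at 201, 8930, 420 and 673 CPM in wall spots against 210, 543, 282 and 212 CPM in other spots, with ratios of -0.06, 4.04, 0.57 and 1.67. Its added 2.24 ± 0.14 was called (adjusted p = 2.1e-57), as were Hbb-bt (2.44 ± 0.24) and Hba-a2 (2.15 ± 0.15), but with the robust estimate the adjusted p was 0.98 for each of the 3, and without fibrotic section 1 Hbb-bs gave 1.25 and Hbb-bt 1.07, the second no longer past the test (adjusted p = 0.18). The wall spots of fibrotic section 1 were thus set apart by globin. S100a9 (2.03 ± 0.30) and Ppbp, a platelet chemokine (2.23 ± 0.54), were also called and then lost with the robust estimate (adjusted p = 0.98 and 0.96), and Ppbp lost its call without fibrotic section 1 too (adjusted p = 0.68). Vldlr, the receptor of very low density lipoprotein, had ratios of -1.63, 1.48, 0.59 and 1.27 on 3, 23, 6 and 21 wall UMIs (2.93 ± 0.71, adjusted p = 0.024, and 0.031 with the robust estimate), a call lost without fibrotic section 1 (adjusted p = 0.17) or the Hk2-deleted section (0.092). Ighg2c and Prom1 were smaller by -1.94 ± 0.38 and -1.75 ± 0.45, and both calls were lost with the robust estimate and without fibrotic section 1 (adjusted p = 0.29 and 0.23).

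The wall spots of the 4 sections were also set against each other directly. Of 10555 genes, 137 were higher with CCl4 (1.3%) and 107 lower (1.01%), with 216 and 190 under the robust estimate. Collagens led: 16 of 26 collagen and scar genes and 6 of 23 elastic genes were higher and none lower, against 2 of 30 contractile genes, Itga8 and Des. Col1a1 stood at 34.2 CPM in the healthy wall spots and at 569, 341 and 394 CPM with CCl4, a difference of 3.38 ± 0.37 (adjusted p = 0.00066). Pdgfrb stood at 11.2 CPM against 53.7, 47.5 and 45.1 CPM (1.83 ± 0.32, adjusted p = 0.011), and the ranges did not overlap for either gene. Des was 1.59 ± 0.34 higher (adjusted p = 0.029), a call lost without the Hk2-deleted section, as were those of Mfap2 and Cacng7. Eln passed without fibrotic section 1 (1.66, adjusted p = 4.1e-06) or fibrotic section 2 (2.29, adjusted p = 2.2e-14), but not with all sections (1.96 ± 0.50, adjusted p = 0.063). Cnn1 (0.65 ± 0.70, adjusted p = 0.69) and Rgs5 (0.65 ± 0.31, adjusted p = 0.32) did not pass. Gpnmb, a protein of lipid-laden macrophages, had no UMI in the healthy wall spots and 60.1, 92.6 and 49.1 CPM with CCl4, at least 34.1-fold higher on average when the healthy level is set at 3 UMIs (1.98 CPM). On the same footing Ngp was at least 116-fold, Camp 63.3-fold, Ltf 39.7-fold, Sirpb1c 6.22-fold, Mfap2 5.59-fold and Cacng7 5.14-fold higher. Ngp, Camp, Ltf and S100a9 (6.66 ± 0.96) lost their call with the robust estimate. In other spots Gpnmb had 10, 5659, 3138 and 3317 UMIs, and within sections it was lower in wall spots than in other spots by -0.42. Each gene given such a fold also had more UMIs in the other spots of every CCl4 section than in those of the healthy section. These rises were thus not particular to wall spots.

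Among the lower genes in CCl4 wall spots were 4 of 17 pericentral and 1 of 20 periportal genes, and none of 24 general hepatocyte genes. Mup11, a major urinary protein from a cluster of near-identical genes whose split is uncertain, stood at 618, 1.92, 3.83 and 0 CPM in wall spots and at 814, 1.58, 2.92 and 1.49 CPM in other spots (-8.69 ± 0.41 among wall spots). Fitm1, a lipid droplet protein, stood at 87.6, 5.75, 4.59 and 6.77 CPM (-4.19 ± 0.26), Susd4, a complement regulator, at 50.7, 3.20, 3.83 and 6.77 CPM (-3.69 ± 0.35), and Slc1a2, a glutamate transporter of pericentral hepatocytes, at 152, 21.1, 21.4 and 27.6 CPM (-2.97 ± 0.21). In other spots Slc1a2 went from 145 CPM to 28.9, 26.4 and 46.7 CPM. Hsd3b5, a steroid dehydrogenase, had 33 wall UMIs in the healthy section and none with CCl4. Slco1a1, Mup12 and Ppp1r3g were lower by -6.05 ± 0.60, -3.99 ± 0.80 and -3.42 ± 0.53, of which Slco1a1 and Ppp1r3g lost their call with the robust estimate. Without fibrotic section 2, which held 14 of the UMIs of Slco1a1 and 6 of those of Mup12 in CCl4 wall spots, these 2 were lower by -11.34 and -6.11 and the counts were 653 and 509.

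The last comparison asked whether the wall difference was another in the Hk2-deleted section than in fibrotic sections 1 and 2, since the Cre can also act in mural cells. The Hk2-deleted section is alone, 1 residual degree of freedom was left, and the section cannot be told apart from the deletion. Here too edgeR gave every gene the spread of the common trend and not its own. Of 13976 genes, the difference was larger for 17 (0.122%) and smaller for 11 (0.0787%), with 14 and 4 under the robust estimate and 2 and 0 with DESeq2 (22 and 11 at an unadjusted p under 0.05). None of 30 contractile genes passed, and the term was 0.37 ± 0.71 for Hk2, -0.05 ± 0.72 for Cnn1, 0.29 ± 0.20 for Des and 0.02 ± 0.24 for Pdgfrb. Of 12 neutrophil and mast cell genes, 6 had a larger difference, and of 24 lymphocyte and plasma cell genes 4 had. Ngp stood at 0, 108, 260 and 319 CPM in wall spots and at 0.691, 84.4, 144 and 56.0 CPM in other spots (1.79 ± 0.15), and Camp at 0, 67.8, 114 and 193 CPM against 0.296, 43.7, 64.9 and 28.4 CPM (1.94 ± 0.17). The wall level of Ngp in the Hk2-deleted section was near that of fibrotic section 2 while its level in other spots was the lowest of the CCl4 sections. Elane, neutrophil elastase, had 12, 4 and 71 wall UMIs in the CCl4 sections (2.81 ± 0.41), and Ctsg and Prtn3, the other granule proteases, gave 2.55 ± 0.45 and 1.66 ± 0.36. Without each section's largest group of touching wall spots, Elane gave -0.03, Ctsg -0.57 and Prtn3 0.02, while Ngp, Camp, Ltf, S100a8 and S100a9 kept their calls. S100a9 (1.18 ± 0.14) and S100a8 (1.16 ± 0.14) lost theirs with the robust estimate. Eln had a larger difference by 0.82 ± 0.17 (adjusted p = 0.00097), from ratios of 2.24, 1.80 and 3.001, and by 0.25 without the largest groups, no longer past the test. Igfbp5, a binding protein of insulin-like growth factors, had a smaller one by -0.997 ± 0.25 (adjusted p = 0.039, and 0.062 with the robust estimate).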

How the data were processed

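UMI counts per gene and spot were deposited by the authors for 4 sections as matrices of 19465 genes, made with Space Ranger 2.0.0 per the file headers and with mm10 per the submitters' processing notes. The spatial scores printed come from the authors' deposited table. The counts were summed over wall spots and other spots of each section, and CPM is a sum's UMIs per 1000000 of its library, without TMM. Sums were compared with edgeR 4.0.16 (R 4.3.3; quasi-likelihood, TMM, filterByExpr, section as block in the comparisons within sections), with Benjamini-Hochberg adjustment over all genes tested and calls at 0.05. The choosing genes and Msln and Upk3b stayed in library sizes and were not tested. SEs are the log2 difference over the root of F. The fits were tested on simulated data. DESeq2 1.42.0 and limma 3.58.1 were alternatives. Nothing was averaged over replicates, and each section is 1 mouse. The spread behind each p-value came mostly from a trend over all genes and not from the gene's own spread between sections. For the CCl4 and Hk2 differences it came from that trend alone, outside the robust fits. A group of 1 section adds no spread of its own. Intervals cover counting error only.

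Named were the 14 largest called increases and 10 largest called decreases in wall spots (at least 10 pooled CPM, the same sign in all 4 sections), up to 8 each way in the other contrasts (at least 10 CPM in a wall library, the lone section outside the range of the others), up to 5 called members of each of 26 lists, or 2 of the highest level where none was called, and Hk2, Pdgfrb, Col1a1, Cnn1, Des, Eln and Rgs5 throughout. Myl9, Vcl, Fhl1 and Filip1l are named for their promoters, and members at 0 UMIs or called against their list, after their values were seen. The members and lists were chosen with earlier results of these data known. Promoters and positions are from RefSeq (GRCm38.p6).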

Additional observations from a re-analysis of the deposited data

Results flagged for a closer look

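Differences between groups were flagged for the wall-to-other difference with CCl4 against olive oil, tested as an interaction in edgeR with 3 sections against 1. It was larger with CCl4 by 2.93 (log2) for Vldlr, 2.44 for Hbb-bt, 2.24 for Hbb-bs, 2.23 for Ppbp, 2.15 for Hba-a2, 2.03 for S100a9, 1.35 for Tpm2 and 1.10 for Des. It was smaller for Kcne3 (-2.44), Ighg2c (-1.94), Krt7 (-1.86), Epcam (-1.78), Mest (-1.76), Prom1 (-1.75), Spp1 (-1.69) and Gpx3 (-1.47).

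The same test between the Hk2-deleted section and fibrotic sections 1 and 2 flagged a larger wall difference for Elane (2.81), Ctsg (2.55), Camp (1.94), Ngp (1.79), Prtn3 (1.66), Ltf (1.49), S100a9 (1.18) and S100a8 (1.16). It was smaller for Igfbp5 (-0.997), Ighj4 (-0.69), Aldh1b1 (-0.68), Hp (-0.51), Apoa2 (-0.32) and Alb (-0.22). Of these 6, Aldh1b1, Hp, Apoa2 and Alb lost their call without the largest touching groups, Igfbp5, Apoa2 and Alb with the robust spread, and all 6 with DESeq2, which kept 2 of the 15 genes named for this comparison. The causes of these differences were not tested.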

How the results depend on the processing

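Counts are given as higher and lower genes, beside 1417 and 1948 for wall against other spots. They were 762 and 882 with spots chosen by Myh11 alone, 1004 and 1217 by Acta2 alone, 1048 and 1025 with DESeq2, 2424 and 341 by library size alone, 678 and 761 without collagen-rich spots, 749 and 1046 without spots with bile duct UMIs, and 934 and 163 with equal weight per spot. Leaving out a section gave 912 to 1303 and 1412 to 1681. For the wall difference with CCl4 (10 and 15), DESeq2 gave 0 and 8, Myh11 alone 7 and 4, wall spots with 3 or more choosing UMIs 22 and 36, no largest touching group 5 and 12, the robust spread 5 and 13, and leaving out a section 6 to 18 and 10 to 16. For wall spots with CCl4 (137 and 107), DESeq2 gave 68 and 47, no filter 369 and 256, Myh11 alone 274 and 227, the robust spread 216 and 190, and leaving out a section 99 to 653 and 56 to 509. For the Hk2-deleted section (17 and 11), DESeq2 gave 2 and 0, no largest touching group 7 and 7, and the robust spread 14 and 4. For the ring (400 and 299), DESeq2 gave 195 and 141, no filter 437 and 539, and leaving out a section 193 to 418 and 92 to 400. The settings of 3 or more choosing UMIs, touching wall spots, no largest touching group and the robust spread were chosen after seeing the data.

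Among named genes in wall against other spots, Prox1 (0.0036) and Pgk1 (0.013) turned direction by library size alone, Pdpn without spots with bile duct UMIs (-0.11), and Elane when a section was left out (-0.57 without the Hk2-deleted section, up to 1.47 without fibrotic section 1), without collagen-rich spots (-0.57), without spots with bile duct UMIs (-1.09) and without the largest touching groups (-0.35). The CCl4 difference of Ighg2c turned to 1.90 with 3 or more choosing UMIs, and the Hk2 difference turned without the largest touching groups for Elane (-0.025) and Ctsg (-0.57). The cause was not tested. Comparisons of spots within sections were paired by taking the section as a block. The sample labels used here pair no mice between groups, so the direct contrast of wall spots was unpaired. No section could be left out of the Hk2 comparison with a test, since no residual degrees of freedom remained. Depth limits genes of few wall UMIs, where 3 UMIs are 1.98 CPM in the healthy section.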
